A study of Mus musculus with 21 samples.

Results

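The cluster of miR-183, miR-96 and miR-182 is a group of 3 neighbouring microRNA (miRNA) genes, Mir183, Mir96 and Mir182, whose hairpin precursors each give a mature strand from the 5′ arm (5p) and one from the 3′ arm (3p). Its 6 mature strands, mmu-miR-183-5p, mmu-miR-183-3p, mmu-miR-96-5p, mmu-miR-96-3p, mmu-miR-182-5p and mmu-miR-182-3p, were taken by name from a table of read counts for 1647 mature mouse miRNAs. The choice of strands went by name and used no count, though earlier results of these data were known.

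The table holds 21 small RNA libraries of wild-type, untreated mice, from the cochlea and from the superior olivary complex (SOC), a group of brainstem nuclei that compares sound between the ears. Tissue was taken at embryonic day 16 (E16), at birth (P0) and at postnatal day 16 (P16), so that miRNA change before and after the onset of hearing can be followed in both organs. For the cochlea there were 2 E16, 4 P0 and 4 P16 libraries, made from the inner ear sensory epithelium of C57BL/6JOlaHsd mice, with the ears of several animals pooled, Direct-zol RNA and the SMARTer smRNA-Seq kit. For the SOC there were 4 E16, 4 P0 and 3 P16 libraries, made from C57Bl6/J mice, with pooled animals, innuPrep RNA and TruSeq small RNA libraries. Organ, strain, RNA kit and library kit coincide, so whether an organ difference in level or ratio belongs to organ, strain or kit cannot be told apart. Totals per library ran from 124400 to 447419 for the cochlea and from 8309669 to 18053698 for the SOC. In CPM, counts scaled to a common library size, 1 count stood for 2.23 to 8.04 in a cochlea library and for 0.0554 to 0.120 in a SOC library.

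The 3 hairpins are cut from a common primary transcript. In most hairpins one arm, the guide, is loaded into Argonaute and steers it to messenger RNAs that match its seed (bases 2 to 8), while the other arm, the passenger, is mostly degraded. In this cluster the 5p strands are regarded as the guides. The cluster is known for its high level in sensory cells, among them the hair cells of the inner ear, photoreceptors and olfactory neurons, and mutations in the seed of miR-96 cause progressive hearing loss in mice and humans.

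The sequences show how far the seeds of the 3 guides overlap, and which passenger belongs to which guide. All 6 strands matched RefSeq mature miRNAs of build GRCm38.p6. They are printed 5′ to 3′ with the seed in capitals, first the guides that share bases 2 to 7, then the third guide, then the passengers. The last line is a miRNA from outside the cluster.
miR-96-5p: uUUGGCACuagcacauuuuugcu
miR-182-5p: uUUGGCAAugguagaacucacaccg
miR-183-5p: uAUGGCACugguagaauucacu
miR-96-3p: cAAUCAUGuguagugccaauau
miR-182-3p: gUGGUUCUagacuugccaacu
miR-183-3p: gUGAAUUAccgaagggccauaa
miR-1271-5p: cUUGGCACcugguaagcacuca

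No 2 members share all of bases 2 to 8, but miR-96-5p and miR-182-5p share bases 2 to 7, and miR-96-5p and miR-183-5p share bases 3 to 8. Outside the cluster, miR-1271-5p was the only miRNA of the table found to carry the seed of miR-96-5p, among the 1415 names with a reference sequence. It had 0 counts over the cochlea libraries and 5 over the SOC libraries. The longest run shared by any pair of members was 8 bases, in miR-182-5p and miR-183-5p, in strands of 21 to 25 bases.

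The hairpins lie on the minus strand of chromosome 6, Mir183 at chr6:30169668-30169737, Mir96 at chr6:30169446-30169551 and Mir182 at chr6:30165918-30165992. Mir183 and Mir96 are 116 bases apart, Mir96 and Mir182 3453 bases, and the 3 hairpins span 3820 bases that no other annotated gene overlaps. The nearest other gene was Rncr4, a long noncoding RNA on the plus strand, 3156 bases away. The Mir96 hairpin is shown with both mature arms in capitals, the 5p arm first, because its arms were the most evenly represented of the 3 hairpins in the cochlea.
Mir96 hairpin: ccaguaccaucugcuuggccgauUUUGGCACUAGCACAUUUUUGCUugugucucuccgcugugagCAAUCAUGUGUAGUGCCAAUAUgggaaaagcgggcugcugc

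Some libraries stood apart from their group. Set A, made up of SOC replicates 2 and 3 at both E16 and P0, had 17.2% to 19.6% of their counts on miR-99b-5p, against 1.43% to 3.84% in the other SOC libraries. Set C, made up of SOC P0 replicate 4 with P16 replicates 2 and 3, had 0.278% to 0.322% on miR-191-5p, against 3.84% to 8.15% elsewhere in the SOC. Set B holds the remaining SOC libraries, which are E16 replicates 1 and 4, P0 replicate 1 and P16 replicate 1. The labels do not name these sets. No P16 library is in set A and no E16 library in set C, so set and time point are partly confounded. In the cochlea, replicate 2 of P16 had a TMM normalization factor of 0.648, against 0.857 to 1.33 in the other cochlea libraries.

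The marker miRNAs of each organ were looked up as a check of the labels. Of 7 epithelial markers (the miR-200 family, miR-203-3p and miR-205-5p), all were counted in the cochlea, led on average by miR-429-3p. Their summed level there was 14737 and 22575 CPM at E16, 7803, 6453, 5657 and 6668 CPM at P0, and 7050, 2498, 5583 and 5776 CPM at P16. Mesenchymal miR-214-3p, at 8712 to 72902 CPM, was more abundant in the cochlea than the epithelial sum in every library, so other cell types were present. The 7 neuronal markers summed to 732 to 4556 CPM in the cochlea, led on average by miR-128-3p, and to 41548 to 120578 CPM in the SOC, led by miR-9-5p. The hair cell has no marker miRNA in these lists outside the cluster, so its share of the tissue could not be followed independently.

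The cluster took a large share of all miRNA counts at E16 in both organs and a smaller one later. In the cochlea its 6 strands held 7.09% and 7.34% of counts at E16, 3.98%, 3.42%, 3.18% and 3.17% at P0, and 3.18%, 1.09%, 4.03% and 3.46% at P16. In the SOC they held 9.82%, 14.8%, 13.8% and 9.71% at E16, 1.59%, 2.97%, 2.39% and 0.424% at P0, and 0.290%, 0.0592% and 0.153% at P16. The 3 time points did not overlap in the SOC. In the cochlea E16 lay above both later time points, which overlapped each other. In bulk tissue, fewer cells that make the cluster and less of it per cell cannot be told apart.

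In the cochlea miR-183-5p was the dominant strand. Its normalized level was 49283 and 52926 CPM at E16, 36016, 32976, 35405 and 32343 CPM at P0, and 29627, 15952, 35615 and 30164 CPM at P16. Both E16 libraries were above all later ones, P0 and P16 overlapped, and the lowest value was that of P16 replicate 2. It ranked 3 among all miRNAs in both E16 libraries, 4 in every P0 library, and between 5 and 11 at P16.

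The second guide, miR-182-5p, was much rarer in the cochlea, at 2930 and 2839 CPM at E16. It stood at 1947, 1305, 1284 and 1351 CPM at P0 and at 2433, 724, 2715 and 1710 CPM at P16. The E16 libraries were again above all others, and the P16 libraries spread across the whole range of P0. The third guide, miR-96-5p, was near the counting limit, with 41 and 46 counts at E16, 6, 7, 3 and 7 at P0, and 14, 1, 9 and 7 at P16. These corresponded to 79.9 to 112 CPM at E16, 19.3 to 38.8 at P0 and 7.78 to 71.4 at P16, with E16 above both later groups. The order of the guides, miR-183-5p over miR-182-5p over miR-96-5p, held in each of the 10 cochlea libraries, without overlap between the 3 strands.

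The cochlear passengers had few counts after E16. miR-183-3p had 248 and 478 counts at E16, 65, 48, 60 and 87 at P0, and 36, 26, 22 and 8 at P16. On the normalized scale its 3 time points did not overlap, at 675 to 830, 234 to 482 and 59.5 to 202 CPM. miR-96-3p had 59 and 111 counts at E16, 6, 2, 3 and 1 at P0, and 6, 0, 2 and 6 at P16, and miR-182-3p had 51 and 100 at E16, 9, 5, 5 and 6 at P0, and 0, 1, 0 and 0 at P16. For both, E16 was above all later libraries. miR-182-3p also separated P0 from P16, where the only count was in replicate 2, the library with the lowest guide levels.

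In the SOC miR-182-5p was the dominant strand, in contrast to the cochlea. Its level was 90388, 109110, 97410 and 71548 CPM at E16, 11083, 14687, 12237 and 3234 CPM at P0, and 2716, 377 and 1145 CPM at P16. The time points formed 3 separate ranges, each below the one before. It ranked 3 or 4 among all miRNAs at E16, 8 to 31 at P0 and 31 to 86 at P16.

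SOC miR-183-5p measured 13287, 55315, 63766 and 13458 CPM at E16, 1672, 13970, 12036 and 1153 CPM at P0, and 783, 144 and 311 CPM at P16. The higher values at E16 and at P0 were those of set A, and E16 and P0 overlapped across sets, while P16 lay below both. Within set A every E16 library was above every P0 library, and within set B the order was E16, P0, P16 without overlap. The rarest guide, miR-96-5p, measured 160, 224, 436 and 26.1 CPM at E16, 24.2, 53.1, 34.9 and 5.12 at P0, and 2.16, 0.530 and 1.82 at P16. E16 replicate 4, the lowest of its group, fell within the range of P0, and P16 lay below all other libraries.

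The SOC passengers were rare throughout. miR-183-3p had 631, 327, 187 and 973 counts at E16, 101, 43, 54 and 22 at P0, and 30, 0 and 4 at P16, with E16 above every later library. miR-96-3p had 6 to 18 counts per library at E16, 0 to 7 at P0 and 0 to 2 at P16. miR-182-3p, the partner of the most abundant guide, had 19, 1, 1 and 13 counts at E16, 3, 0, 0 and 2 at P0, and 0 in all 3 P16 libraries. A count of 0 in a SOC library allows up to 0.166 to 0.361 CPM (3 counts), in a cochlea library up to 6.71 to 24.1 CPM. Such limits, and all intervals given here, cover counting error only, since the reads carry no molecular identifiers.

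**Figure D1:**
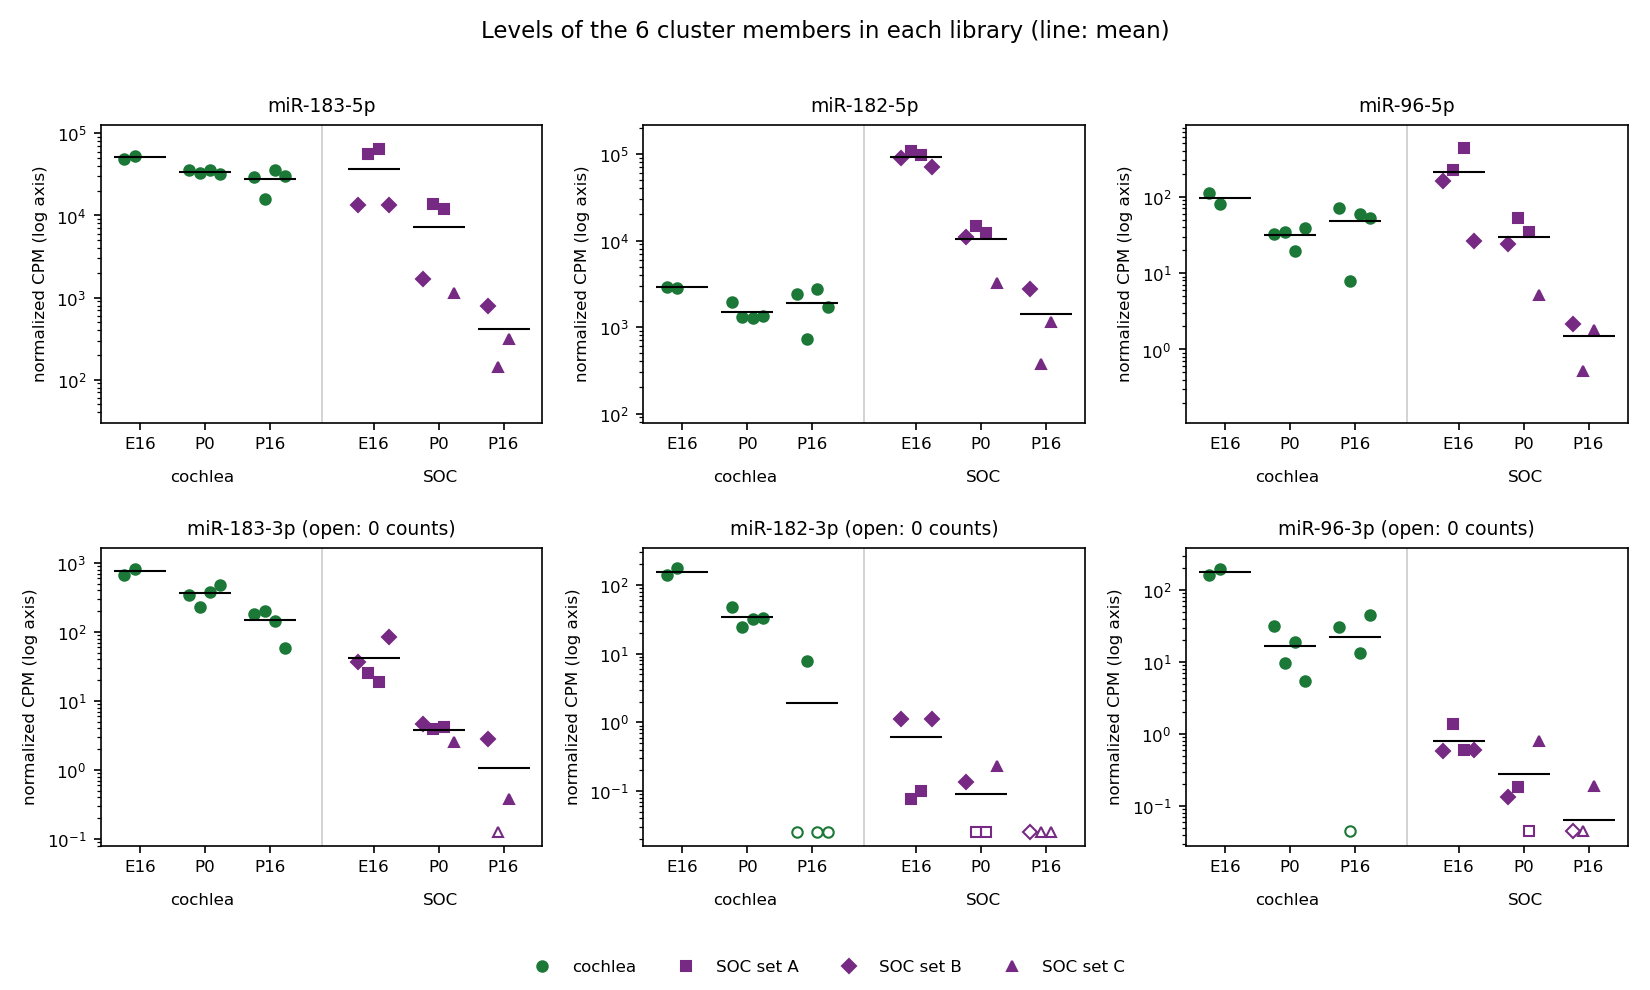
Normalized level (CPM, log axis) of the 6 strands of the cluster in each library, by organ and time point. Each point is a library, and open symbols at the lower edge are counts of 0. In the SOC the miR-182-5p libraries fall into separate ranges at E16 (71548 to 109110), P0 (3234 to 14687) and P16 (377 to 2716), while cochlear miR-183-5p stays between 15952 and 52926.

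Change with time was tested with edgeR across all miRNAs of an organ, and a miRNA was called when its adjusted p (false discovery rate) was under 0.05, its change over 1.5-fold, and its replicates did not overlap between the time points. The low-count filter kept all 6 strands for the cochlea and 5 for the SOC, where miR-96-3p was left out. A strand that passed it only through E16, as SOC miR-182-3p did, had to be higher there. Contrasts of the same organ share libraries, so their counts are not independent.

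From E16 to P0 in the cochlea, the passengers miR-96-3p and miR-182-3p fell and no guide was called. These were 2 of 6 strands called lower, against 16.6% of the 896 miRNAs tested. miR-96-3p fell by 3.38 on the log2 scale (SE 0.70, adjusted p = 2.63e-05) and miR-182-3p by 2.17 (SE 0.67, adjusted p = 0.00767), each lower in 4 of 4 P0 libraries. The log2 change of the guides was -0.58 for miR-183-5p (adjusted p = 0.282), -0.97 for miR-182-5p (adjusted p = 0.0534) and -1.59 for miR-96-5p (adjusted p = 0.0703), and that of miR-183-3p was -1.06 (adjusted p = 0.0575). Of the guides, 2 had an unadjusted p under 0.05 in edgeR and DESeq2 called 0, while it called miR-183-3p (-1.08, adjusted p = 0.0325). With RLE size factors in place of TMM edgeR called 3 strands, miR-182-5p among them (-0.99, adjusted p = 0.0431). The guides' median was -0.97, against a median of 0 over all miRNAs tested.

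This count depended on scaling and on single libraries. TMM set the median change of all miRNAs near 0, whereas scaling by library totals put that median at -0.38 for P0 and at -0.58 for P16 against E16. Under library totals all 6 strands were called at P0, with miR-183-5p at -1.04, or lower than the shifted median, and 5 at P16. At P0, 6 strands were also called without P16 replicate 2, 4 without P16 replicate 1 and 4 without P16 replicate 4, libraries that enter this contrast through the shared spread, the scaling and the miRNAs that pass the filter. Without E16 replicate 2, 1 strand was called, and miR-182-3p was at -2.12 (adjusted p = 0.0847). It was also not called with the replicate number as a block (adjusted p = 0.0882) or in a joint fit of all 21 libraries (-2.19, adjusted p = 0.117). Without P0 replicate 1, miR-182-5p was called at -1.17 (adjusted p = 0.0306).

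From E16 to P16 in the cochlea all 3 passengers fell and again no guide was called. The 3 of 6 strands called lower compare with 18.6% of all miRNAs tested. miR-183-3p fell by 2.34 on the log2 scale (SE 0.45, adjusted p = 2.05e-06) and miR-96-3p by 2.94 (SE 0.70, adjusted p = 0.000186). miR-182-3p was called as well (adjusted p = 1.27e-08), and with 1 count left over the P16 group its counts per total were 139-fold lower (95% counting interval 24.6 to 5531). The guides' log2 changes were -0.88 for miR-183-5p (adjusted p = 0.0748), -0.60 for miR-182-5p (adjusted p = 0.231) and -0.96 for miR-96-5p (adjusted p = 0.271), beside a median of -0.087 over all miRNAs. miR-183-5p was called without P16 replicate 1 (-0.90, adjusted p = 0.0485) or P16 replicate 2 (-0.61, adjusted p = 0.0435), and by DESeq2 (-0.79, adjusted p = 0.0419), and was the 1 guide with an unadjusted p under 0.05 in edgeR.

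From P0 to P16 in the cochlea 2 of 6 strands were called lower, miR-182-3p and miR-183-3p, against 6.58% of all miRNAs. miR-183-3p fell by 1.28 on the log2 scale (SE 0.40, adjusted p = 0.0111), but was not called without P0 replicate 4 (-1.13, adjusted p = 0.0785) or P16 replicate 4 (-1.05, adjusted p = 0.0711). In the joint fit of all 21 libraries neither was called, with miR-182-3p at -4.18 (adjusted p = 0.0548) and miR-183-3p at -1.21 (adjusted p = 0.298). miR-182-3p (adjusted p = 0.00280) went from 25 counts over the P0 group to 1, a 21.8-fold lower share (95% counting interval 3.56 to 894). No guide was called by edgeR, where 0 had an unadjusted p under 0.05, or by DESeq2, and their median log2 change was 0.37.

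Marker miRNAs moved in the same cochlear contrasts. From E16 to P0, where 16.6% of all miRNAs were called lower and 7.81% higher, 3 of 7 epithelial markers fell, 5 of 7 neuronal markers, 3 of 5 mesenchymal markers and 1 of 2 muscle markers, while 1 mesenchymal marker rose. Of 5 tested blood cell markers, miR-451a was counted at E16 alone and passed the filter only there, so it had to fall, and the other 4 fell as well. The epithelial miR-429-3p fell by 2.14 on the log2 scale (adjusted p = 6.19e-07) and the myeloid miR-223-3p by 2.67 (adjusted p = 6.96e-09). At P16 against E16, beside 18.6% of all miRNAs lower and 10.9% higher, 3 of 7 epithelial, 4 of 7 neuronal, 2 of the 4 blood and 2 of 5 mesenchymal markers fell, and 1 neuronal and 1 mesenchymal marker rose. In that contrast 2 of 2 tested oligodendrocyte markers rose, as did muscle miR-1a-3p by 2.65 (adjusted p = 2.72e-07). Of the 2 markers of pigmented and secretory epithelium, miR-204-5p was at 1.44 (adjusted p = 0.00892) with overlapping replicates, and miR-211-5p at -0.72 (adjusted p = 0.761). Between P0 and P16, with 6.58% of all miRNAs lower and 3.91% higher, 1 of 7 epithelial markers fell, miR-200c-3p (-1.10, adjusted p = 0.0103), and 1 of 5 mesenchymal markers, miR-214-3p (-2.48, adjusted p = 2.31e-10). Over that interval 2 of 7 neuronal, 2 of 2 oligodendrocyte, 1 of 5 blood, 1 of 5 mesenchymal and 1 of 2 muscle markers rose, among them miR-338-3p by 3.63 (adjusted p = 1.35e-11) and miR-1a-3p by 3.73 (adjusted p = 2.70e-20). Muscle miR-133a-3p had 0 counts in all cochlea libraries. P16 replicate 2, lowest in the cluster, also had the lowest epithelial sum. The part of these cell types in the result was not tested.

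Of the 3 guides in the SOC, 1 was called from E16 to P0. miR-182-5p fell by 3.16 on the log2 scale (SE 0.63, adjusted p = 0.0109) and miR-183-3p by 3.42 (SE 0.86, adjusted p = 0.0351), each lower in 4 of 4 P0 libraries. These were 2 of 5 tested strands called lower, against 4.18% of the 694 miRNAs tested. miR-183-5p (-2.34, adjusted p = 0.142), miR-96-5p (-2.85, adjusted p = 0.0597) and miR-182-3p (-2.64, adjusted p = 0.206) were not called. The guides' median was -2.85, against 0.17 over all miRNAs.

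The call of miR-183-3p was near the threshold. Replicates of the same number resembled each other between E16 and P0 in the SOC. Replicates 1, 2 and 3 also keep their library set there, so number and set cannot be told apart. With the number as a block in edgeR, miR-183-3p was at -3.12 (adjusted p = 0.0557) and miR-182-5p at -3.32 (adjusted p = 0.0159). In the same blocked fit miR-183-5p was at -2.60 (adjusted p = 0.0991), miR-182-3p at -2.68 (adjusted p = 0.104) and miR-96-5p at -2.66 (adjusted p = 0.0168), the last not called because its replicates overlapped. The joint fit of all 21 libraries called 3 strands, the third being miR-183-5p at -2.52 (adjusted p = 0.00518). Leaving out E16 replicate 1, 2, 3 or 4 put miR-183-3p at -3.54, -3.61, -3.67 and -2.82 (adjusted p = 0.0764, 0.0657, 0.0521 and 0.0796), and leaving out P0 replicate 1, 2 or 3 put it at -3.50, -3.43 and -3.53 (adjusted p = 0.0665, 0.0787 and 0.0822). Apart from E16 replicate 4, the call was thus lost without a smaller change. Without E16 replicate 4 miR-96-5p was called (-3.23, adjusted p = 0.0299). Without the 4 libraries of set A no strand was called by edgeR, nor was any of the 660 miRNAs then tested, of which 73 had an unadjusted p under 0.05. There miR-182-5p was at -3.49 (adjusted p = 0.337), and 4 of 5 strands had an unadjusted p under 0.05. With the set as a covariate the log2 changes were -2.90 for miR-182-5p (adjusted p = 9.56e-06) and -2.36 for miR-183-5p (adjusted p = 3.61e-05). Of these, miR-183-5p was not called because its replicates overlapped, with 13287 CPM in E16 replicate 1 and 13970 CPM in P0 replicate 2.

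From E16 to P16 in the SOC all 5 tested strands were called lower. The 4 that did not pass the filter through E16 alone stand against 20% of all miRNAs. The log2 change was -6.03 for miR-182-5p (SE 0.83, adjusted p = 0.000248), -6.46 for miR-183-5p (SE 1.24, adjusted p = 0.00177) and -7.12 for miR-96-5p (SE 1.17, adjusted p = 0.000706). miR-183-3p fell by 5.25 (SE 1.08, adjusted p = 0.00282). The guides' median was -6.46, against 0.079 over all miRNAs. miR-182-3p, with 34 counts over the E16 group and 0 over the P16 group, was at least 6.49-fold lower, taking 3 counts over the P16 group (adjusted p = 0.0299). It was not called without P16 replicate 1, 2 or 3 (adjusted p = 0.0515, 0.0648 and 0.0693). The untested miR-96-3p went from 41 counts to 2, an 11.7-fold lower share (95% counting interval 3.05 to 100.2). All 5 were called as well without set A, where the guides' changes were -5.83, -5.01 and -5.96 for miR-182-5p, miR-183-5p and miR-96-5p. P16 replicates 2 and 3 remain in that fit and belong to set C, which has no E16 library.

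From P0 to P16 in the SOC the 3 guides fell further, 3 of 5 strands against 8.07% of all miRNAs. No passenger was called by edgeR, where 0 had an unadjusted p under 0.05, or by DESeq2. The log2 change was -2.87 for miR-182-5p (SE 0.70, adjusted p = 0.0160), -4.13 for miR-183-5p (SE 1.10, adjusted p = 0.0234) and -4.27 for miR-96-5p (SE 1.02, adjusted p = 0.0144). Without set A, which leaves 7 SOC libraries, edgeR called none of the 5 and 4 had an unadjusted p under 0.05. The guides were then at -2.34 for miR-182-5p (adjusted p = 0.197), -1.75 for miR-183-5p (adjusted p = 0.222) and -3.32 for miR-96-5p (adjusted p = 0.130). Leaving out single libraries ended calls as well. miR-182-5p was at -2.68 without P16 replicate 3 (adjusted p = 0.0676) and miR-96-5p at -3.88 without P16 replicate 2 (adjusted p = 0.0594). miR-183-5p was at -3.58, -3.76 and -3.89 without P0 replicate 2, P16 replicate 2 and P16 replicate 3 (adjusted p = 0.0556, 0.0847 and 0.0822). Without P16 replicate 1, miR-183-3p was called at -4.12 (adjusted p = 0.0118). With the set as a covariate the 3 guides were called, with smaller changes of -2.05, -1.92 and -2.64 for miR-182-5p, miR-183-5p and miR-96-5p.

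Epithelial, muscle and mesenchymal markers were among the miRNAs called lower against E16 in the SOC. The SOC was cut from frozen whole heads at E16 and from brains removed before freezing at P0 and P16, so in contrasts with E16 age and dissection cannot be told apart. The 7 epithelial markers summed to 1963, 1739, 1088 and 926 CPM at E16, 110, 195, 108 and 56.2 CPM at P0, and 55.0, 49.7 and 146 CPM at P16. The most abundant of them on average, miR-205-5p of surface epithelia, measured 1191, 820, 387 and 384 CPM at E16, 6.47, 7.87, 20.6 and 1.40 at P0, and 2.26, 0.742 and 1.05 at P16. The E16 libraries were above all later ones in both measures. From E16 to P0, 3 of the 4 epithelial markers tested fell, among them miR-205-5p (log2 change -6.25, adjusted p = 0.00176) and miR-203-3p (-2.42, adjusted p = 0.0351), and 3 of 4 from E16 to P16, beside 4.18% and 20% of all miRNAs called lower. miR-200a-3p, miR-200b-3p and miR-141-3p were at or near 0, at no more than 1.40 CPM in any SOC library.

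Muscle miR-206-3p fell by 5.10 from E16 to P0 (adjusted p = 0.000152), 1 of 2 muscle markers tested, beside the same 4.18% of all miRNAs. The muscle sum was 292, 180, 113 and 223 CPM at E16, 22.7, 11.8, 15.2 and 10 at P0, and 24.2, 9.01 and 10.1 at P16, and the defining miR-133a-3p was at or near 0. In the mesenchymal list 3 of 5 fell in both contrasts with E16, against 4.18% of all miRNAs at P0 and 20% at P16, though miR-199a-5p of the 3 passed the filter only through E16. miR-214-3p fell by 3.94 at P0 (adjusted p = 0.0236), while the list's most abundant gene, miR-143-3p, was at -0.21 (adjusted p = 0.764) and held the list's sum between 13782 and 25431 CPM over all SOC libraries. From P0 to P16, where the 3 guides fell, the median log2 change was -0.84 for the epithelial list, -0.070 for muscle and 0.018 for mesenchyme. miR-205-5p was then at -2.74 with overlapping replicates (adjusted p = 0.0390), miR-206-3p at -0.14 (adjusted p = 0.859) and miR-214-3p at -0.95 (adjusted p = 0.468), and none of these was called. Other lists did move over that interval, where 8.07% of all miRNAs were called higher and 8.07% lower. All 3 of 3 oligodendrocyte markers rose, with a median of 3.99. Of 7 neuronal markers 1 rose, miR-138-5p (1.87, adjusted p = 0.0398), and 1 fell, miR-137-3p (-2.40, adjusted p = 0.0149). The part of these cell types in the fall of the cluster was not tested.

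**Figure D2:**
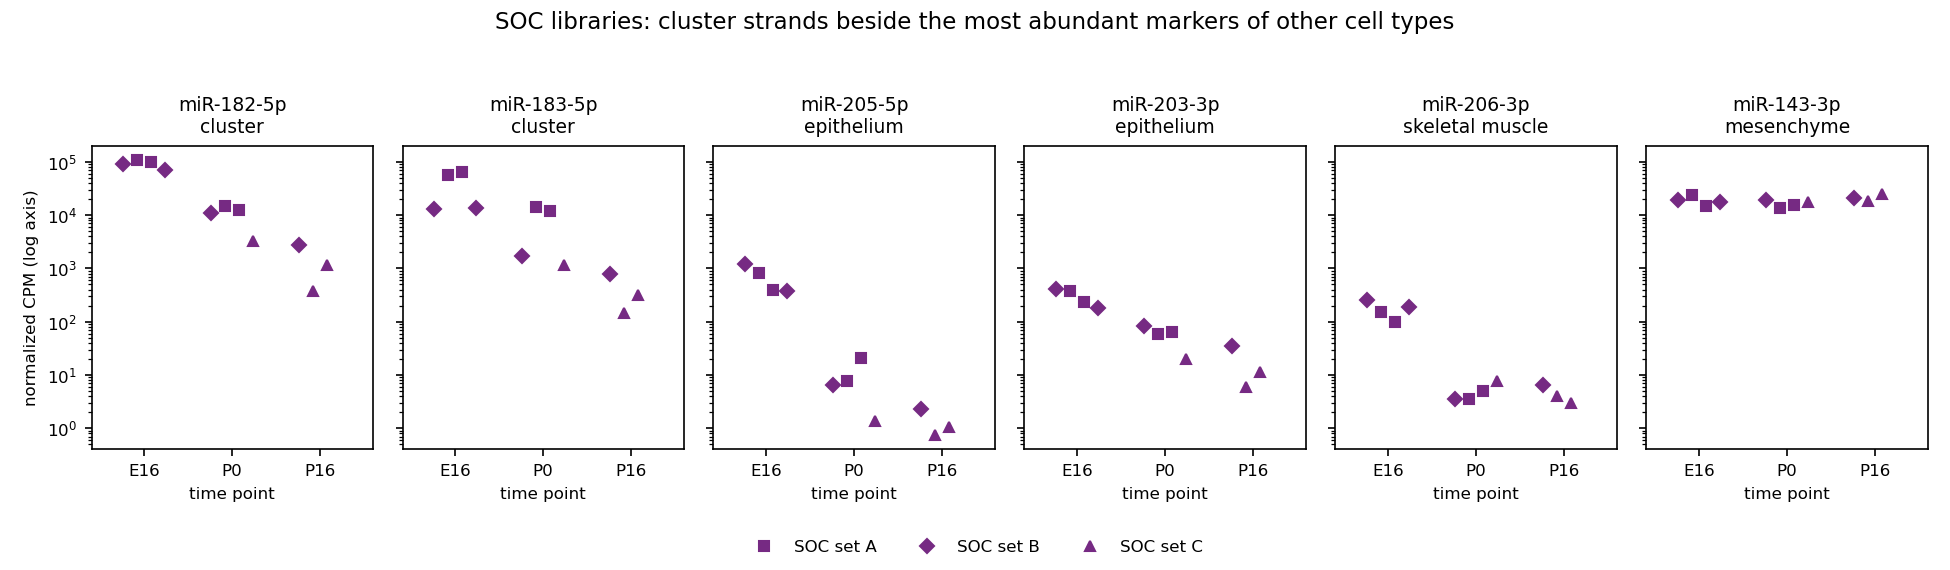
Normalized level (CPM, log axis) in each SOC library of miR-182-5p and miR-183-5p beside the most abundant epithelial, muscle and mesenchymal markers, by time point, with symbols for library sets A, B and C. miR-205-5p is at 384 to 1191 CPM at E16 and at 20.6 CPM or less later, while miR-143-3p is between 13608 and 25315 CPM throughout.

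The remaining lists were mixed in the SOC. At P16 against E16, where 21.2% of all miRNAs were called higher and 20% lower, 2 of 7 neuronal markers rose and 2 fell, the latter being miR-9-3p (-2.11, adjusted p = 0.0356) and miR-137-3p (-1.92, adjusted p = 0.0174). Over the same interval 3 of 3 oligodendrocyte markers rose, with miR-338-5p up by 5.95 (adjusted p = 0.000121). Of 6 blood cell markers 1 rose and 1 fell from E16 to P16. Of the pigmented and secretory epithelium, miR-211-5p had 0 counts in every SOC library and miR-204-5p was at 2.49 CPM or less.

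The fall from E16 to P16 was larger in the SOC than in the cochlea for the 3 guides. This was tested with the organ by time interaction in edgeR over the 545 miRNAs tested in both organs. The SOC change minus the cochlear change was -5.60 for miR-182-5p (SE 0.95, adjusted p = 0.000488), -5.71 for miR-183-5p (SE 1.19, adjusted p = 0.00262) and -6.25 for miR-96-5p (SE 1.26, adjusted p = 0.00233). These were 3 of 5 strands, against 5.87% of all miRNAs with a change lower in the SOC. The passengers miR-183-3p (-3.09, adjusted p = 0.0543) and miR-182-3p (0.97, adjusted p = 0.760) did not pass. miR-183-3p did pass without cochlea P16 replicate 4 (adjusted p = 0.0469), SOC E16 replicate 3 (0.0469), SOC P0 replicate 4 (0.0329) or SOC P16 replicate 1 (-5.34, adjusted p = 0.000888), in DESeq2 (0.00580) and with sets A, B and C as a covariate (-2.67, adjusted p = 0.00811). With that covariate the guides passed at smaller sizes, -4.58 for miR-182-5p, -3.63 for miR-183-5p and -4.57 for miR-96-5p. SOC tissue came from frozen whole heads at E16 and from removed brains later, so organ and dissection cannot be told apart in any interaction against E16.

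For the change from E16 to P0, 0 of 5 strands passed the interaction test in edgeR, against 2.94% of all miRNAs with a change lower in the SOC. At an unadjusted p under 0.05 there were 2, miR-182-5p at -2.31 (adjusted p = 0.0698) and miR-183-3p at -2.43 (adjusted p = 0.106), and DESeq2 called 2. With the replicate number as a block they were at -2.41 (adjusted p = 0.0553) and -2.32 (adjusted p = 0.170). Both passed without SOC P16 replicate 1 (adjusted p = 0.0369 for each). With the set as a covariate miR-182-5p (-2.05, adjusted p = 0.00541), miR-183-5p (-1.91, adjusted p = 0.00179) and miR-183-3p (-1.73, adjusted p = 0.0327) passed.

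The ratio of miR-182-5p to miR-183-5p separated the organs at every time point. In the cochlea its geometric mean was 0.0565 at E16 (n = 2), 0.0425 at P0 (n = 4) and 0.0635 at P16 (n = 4), with single libraries between 0.0364 and 0.0822. In the SOC it was 3.23 at E16 (n = 4), 2.11 at P0 (n = 4) and 3.22 at P16 (n = 3), with single libraries between 1.02 and 6.80. miR-183-5p was thus the more abundant guide in 10 of 10 cochlea libraries and miR-182-5p in 11 of 11 SOC libraries.

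On the log2 scale the SOC ratio was higher by 5.84 at E16 (exact permutation p = 0.0667, adjusted p = 0.0750), 5.63 at P0 (exact p = 0.0286, adjusted p = 0.0514) and 5.66 at P16 (exact p = 0.0286, adjusted p = 0.0514). These are the smallest p-values such group sizes can give, 0.0667 for 2 against 4 and 0.0286 for 4 against 4 or 3, and with 9 tests none reached an adjusted p under 0.05. Counts of different miRNAs depend on how well each is captured by a library kit, so the ratios are ratios of counts and not of molecules, and organ and kit cannot be told apart here.

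Within the SOC the same ratio differed between library sets. It was 1.53 and 1.97 in the E16 libraries of set A and 5.32 and 6.80 in those of set B. At P0 it was 1.02 and 1.05 in set A, 6.63 in set B and 2.81 in set C, and at P16 3.47 in set B and 2.61 and 3.68 in set C. Set A was the lowest at both of its time points, and all sets lay above every cochlea library.

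The ratio of miR-182-5p to miR-96-5p was also higher in the SOC. Its geometric mean in the cochlea was 30.2, 44.0 and 40.6 at E16, P0 and P16, with single libraries between 25.9 and 62.3, and in the SOC 641, 408 and 787, with single libraries between 223 and 2741. The organs did not overlap at any time point, with log2 differences of 4.41 (exact permutation p = 0.0667, adjusted p = 0.0750), 3.21 (exact p = 0.0286, adjusted p = 0.0514) and 4.28 (exact p = 0.0286, adjusted p = 0.0514). In the cochlea this ratio rests on the 1 to 46 counts of miR-96-5p in a library.

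The ratio of miR-183-5p to miR-96-5p was the closest between the organs. It was 535, 1035 and 640 in the cochlea at E16, P0 and P16, and 198, 193 and 244 in the SOC. The organs overlapped at E16, with a log2 difference of -1.43 (exact permutation p = 0.200, adjusted p = 0.200). They did not overlap at P0, where the log2 difference was -2.42 (exact p = 0.0286, adjusted p = 0.0514), nor at P16, at -1.39 (exact p = 0.0571, adjusted p = 0.0750). Over the 9 tests between organs, the groups were apart in 8, 5 had an unadjusted exact p under 0.05, and 0 passed after adjustment.

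Over time none of the 3 guide ratios passed a test in either organ. Of 18 exact permutation tests 0 had an adjusted p under 0.05 and 0 an unadjusted one, the smallest adjusted value being 0.514. The 6 cochlear tests against E16 could not give a p below 0.0667, and the others none below 0.0286. The groups were apart in 1 of the 18, the cochlear ratio of miR-183-5p to miR-96-5p from E16 to P0, whose mean log2 was 0.95 higher at P0 (exact permutation p = 0.0667, adjusted p = 0.514), the smallest possible there. The largest other differences were 0.95 for miR-182-5p over miR-96-5p in the SOC from P0 to P16 (exact permutation p = 0.0857) and -0.69 for miR-183-5p over miR-96-5p in the cochlea from P0 to P16 (exact permutation p = 0.171). The smallest unadjusted p of the 18 belonged to cochlear miR-182-5p over miR-183-5p from P0 to P16 (0.58, exact permutation p = 0.0571, adjusted p = 0.514). With 2 libraries at E16 in the cochlea and spreads of 0.26 to 1.52 (SD, log2) between SOC libraries of a time point, smaller shifts could not be seen. In the SOC the log2 ratio of miR-182-5p to miR-183-5p was lower at P0 than at E16 in 4 of 4 pairs of the same replicate number, going from 2.77 to 2.73, 0.98 to 0.072, 0.61 to 0.024 and 2.41 to 1.49 (mean difference -0.61). The pairing was not tested for the ratios, and replicates 1, 2 and 3 also keep their library set between these time points.

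**Figure D3:**
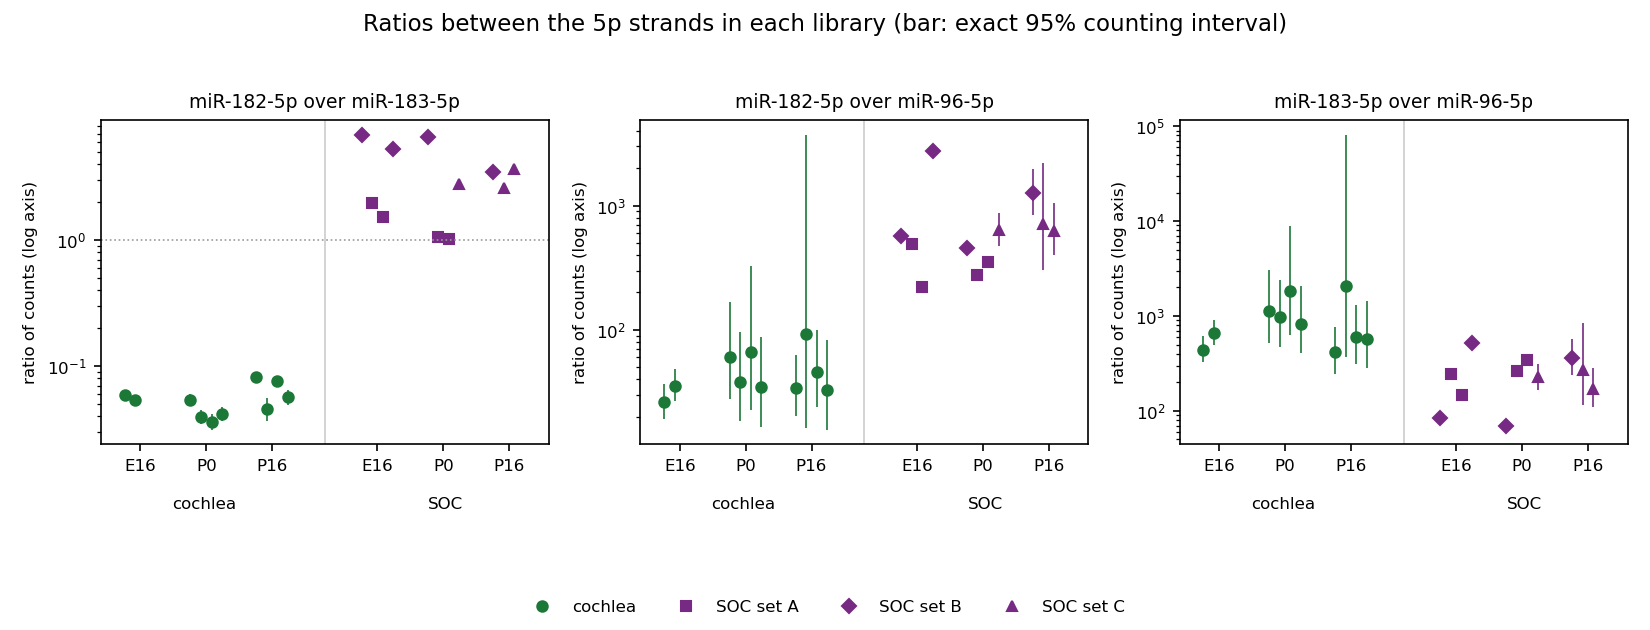
Ratios of counts (log axis) between the 3 guides in each library, by organ and time point, each point a library. The ratio of miR-182-5p to miR-183-5p is at 0.0822 or less in all cochlea libraries and at 1.02 or more in all SOC libraries.

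The share of a hairpin's counts on its 3p arm differed between hairpins, organs and time points. For miR-183 in the cochlea it was 1.35% and 1.54% at E16, 0.956%, 0.704%, 1.08% and 1.47% at P0, and 0.616%, 1.25%, 0.408% and 0.197% at P16. Pooled over libraries this was 1.47% (95% Wilson interval 1.37 to 1.58), 1.04% (0.917 to 1.17) and 0.530% (0.432 to 0.649). The time points overlapped between libraries, with P16 replicate 2 the highest of its group.

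For miR-182 in the cochlea the 3p share was 4.53% and 5.76% at E16, 2.41%, 1.83%, 2.44% and 2.40% at P0, and 0%, 1.06%, 0% and 0% at P16. The 3 groups did not overlap. The pooled ratio of 5p to 3p counts was 17.95 at E16, 43.0 at P0 and 1209 at P16, the last from a single 3p count (pooled share 0.0826%, 95% Wilson interval 0.0146 to 0.467).

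For miR-96 in the cochlea the 3p strand was the more abundant at E16, at 59.0% and 70.7% of the hairpin's counts, or 66.1% pooled (95% Wilson interval 60.2 to 71.7). At P0 it was 50%, 22.2%, 50% and 12.5%, and 34.3% pooled (20.8 to 50.8). At P16 it was 30%, 0%, 18.2% and 46.2%, and 31.1% pooled (19.5 to 45.7). The libraries of P0 held 6 to 12 counts on both arms and those of P16 1 to 20, so single values are loose, but both E16 libraries were above all later ones. The strand taken as the passenger was thus counted more often than the guide at E16 in this organ.

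The fit of limma on the log2 ratio of 5p to 3p over 92 cochlear hairpins called miR-182 at P16. Its ratio rose by 4.39 from E16 to P16 (SE 0.92, adjusted p = 0.00643) and by 3.27 from P0 to P16 (SE 0.75, adjusted p = 0.0164), sizes that depend on the pseudocount since P16 held 1 count. The filter asked for 5 counts per arm on average, and miR-182-3p and miR-96-3p passed it only through E16, where 3p was high, so for both a rise against E16 was favoured in advance. With a minimum of 1 count, which both pass without E16, limma called miR-182 from E16 to P16 (adjusted p = 0.0147) and from P0 to P16 (adjusted p = 0.0338), and miR-96 was not called (adjusted p = 0.111 from E16 to P16). At the filter of 5, miR-182 was 1 of 3 hairpins called from P0 to P16, against 6.52% of all hairpins with a higher ratio, and 1 of 3 from E16 to P16, where the share was 19.6% but the filter favoured the call. From E16 to P16, miR-96 was at 2.11 (adjusted p = 0.0575) and miR-183 at 1.51 (adjusted p = 0.0975), and all 3 had an unadjusted p under 0.05. The median over all hairpins was 0.19. From E16 to P0 limma called 0 of 3, against 17 of 92 hairpins in either direction and 9.78% with a higher ratio, with miR-96 at 1.87 (adjusted p = 0.0978) the single hairpin with an unadjusted p under 0.05.

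These calls turned on single libraries. From E16 to P16, miR-182 was not called without E16 replicate 1 (4.57, adjusted p = 0.0549), and miR-183 was called without P16 replicate 2 (1.95, adjusted p = 0.0206). miR-96 reached an adjusted p of 0.0492 without P16 replicate 4 (2.45), a direction its filter favoured. From P0 to P16, miR-182 was not called without P0 replicate 3 (3.23, adjusted p = 0.0553) or P16 replicate 1 (2.84, adjusted p = 0.0609).

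In the SOC the pooled 3p shares were lower than in the cochlea for all 3 hairpins at each time point, but single libraries overlapped after E16. At P16, miR-183 was at 0.359% in SOC replicate 1 and 0.197% in cochlea replicate 4, and miR-182-3p had 0 counts in 3 of 3 SOC and 3 of 4 cochlea libraries. miR-96 overlapped at P0, with 13.7% in SOC replicate 4 and 12.5% in cochlea replicate 4, and at P16, with 9.52% in SOC replicate 3 and 0% in cochlea replicate 2. For miR-183 they were 0.278%, 0.0456%, 0.0293% and 0.624% at E16, 0.272%, 0.0285%, 0.0351% and 0.221% at P0, and 0.359%, 0% and 0.123% at P16. The 4 lowest values above 0 were those of set A, and the time points overlapped. Pooled, the share was 0.122%, 0.0626% and 0.262% at E16, P0 and P16. Even the highest SOC value at E16 lay below both cochlear ones.

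For miR-182 in the SOC the 3p share was extremely small, with 34 counts on 3p against 4755169 on 5p over the E16 group, or 0.000715% pooled. Single libraries lay outside the counting error of that pooled value, with 0.0000707% and 0.000103% in set A (1 count each, replicates 2 and 3) and 0.00123% and 0.00158% in set B (replicates 1 and 4). At P0 there were 5 against 587813, or 0.000851%, and at P16 0 against 44385, which allows a share of up to 0.00676%. In the cochlea the pooled E16 share was 5.28% from 151 counts on 3p. For miR-96 in the SOC the pooled 3p share was 0.397% at E16, 0.745% at P0 and 4.08% at P16 (95% Wilson interval 1.13 to 13.7), the last from 2 counts on 3p and 47 on 5p. Of the single libraries, P0 replicate 4 was far above its group at 13.7%, and at P16 the 3p strand was counted in 1 of 3 libraries.

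No arm ratio of the cluster was called in the SOC, where limma tested 226 hairpins, miR-183 and miR-96 among them, and miR-182-3p had too few counts. miR-96-3p passed the filter only through E16 here as well. From E16 to P0 it called 0 of 2, and 0% of all hairpins, with 10 of the 226 and neither of the 2 at an unadjusted p under 0.05. From E16 to P16 it called 0 of 2, against 11.1% of all hairpins in either direction, with miR-96 at -3.51 (adjusted p = 0.113, unadjusted p = 0.0351) and miR-183 at 0.0081 (adjusted p = 0.998). From P0 to P16 it called 0 of 2, against 3.54% of all hairpins, with neither at an unadjusted p under 0.05. For miR-96 these values moved with the model, and their sizes depend on the pseudocount, since 2 of 3 P16 libraries had 0 counts on 3p. With a pseudocount of 1 miR-96 was at -4.13 from E16 to P16 (limma, adjusted p = 0.0575). Libraries of the same number did not all resemble each other in these contrasts. With the replicate number as a block, limma called miR-96 at -4.59 from E16 to P16 (adjusted p = 0.0129) and at -3.96 from P0 to P16 (adjusted p = 0.0382). With the set as a covariate it was at -0.25 (adjusted p = 0.927) and -0.47 (adjusted p = 0.782). From E16 to P0 the block gave miR-183 0.47 (adjusted p = 0.779) and miR-96 -0.64 (adjusted p = 0.851). Whether the arm ratios changed differently in the 2 organs was not tested.

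**Figure D4:**
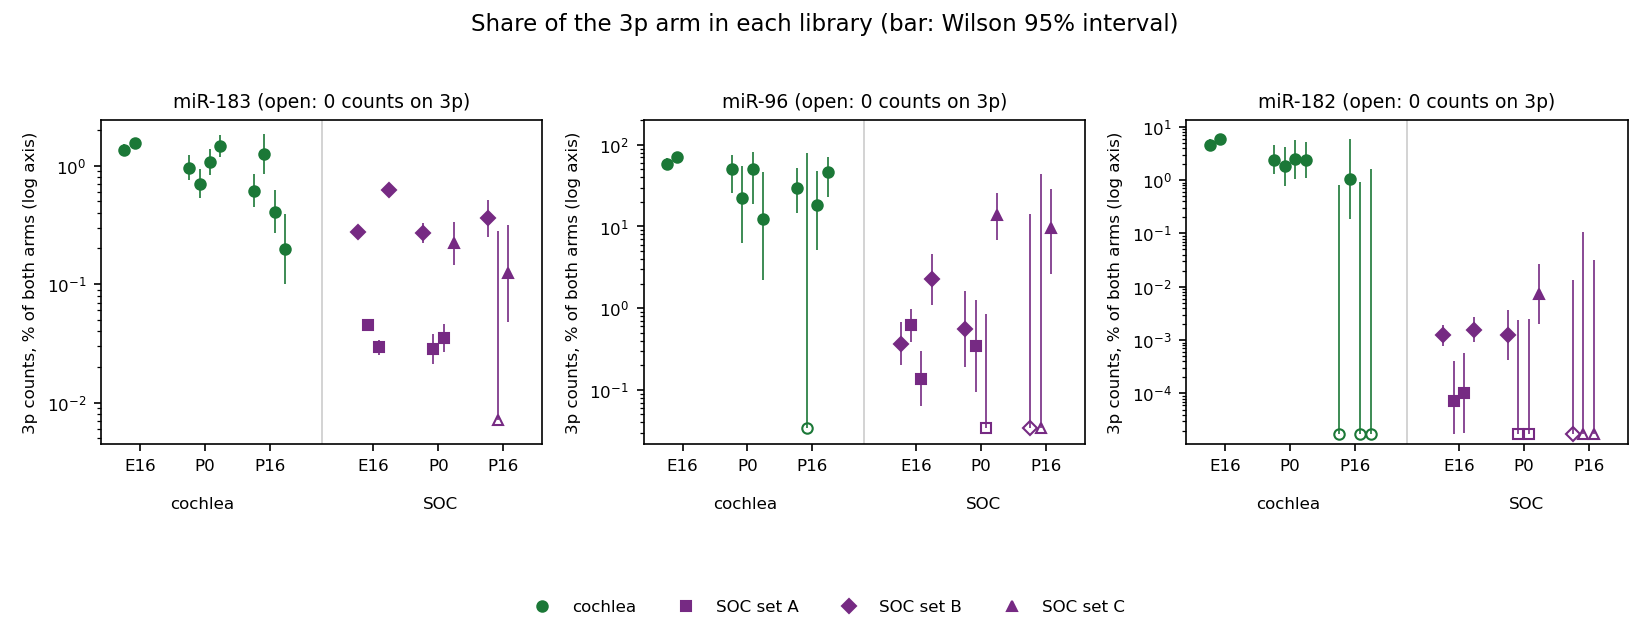
Share of counts on the 3p arm (% of both arms, log axis) for the 3 hairpins in each library, by organ and time point. Each point is a library, and open symbols at the lower edge had 0 counts on 3p. At E16 miR-96 is at 59.0% and 70.7% in the cochlea and at 2.28% or less in the SOC, and miR-182 is at 0.00719% or less in every SOC library with a 3p count, while the 3 at P16 had none and allow up to 0.0104%, 0.0845% and 0.0251%.

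The miRNAs outside the cluster whose profiles over the libraries lay nearest to the mean of the 3 guides were named by root mean square distance of centred log2 CPM. In the cochlea (10 libraries, 265 miRNAs compared, median distance 1.05) they were miR-340-3p (0.32), miR-369-5p (0.38), miR-151-5p (0.39), miR-30e-3p (0.40) and miR-221-3p (0.41). The guides themselves were at 0.15 (miR-182-5p), 0.27 (miR-96-5p) and 0.29 (miR-183-5p) from their own mean. In the SOC (11 libraries, 552 compared, median distance 2.81) the nearest were miR-135a-1-3p (1.02), miR-302d-3p (1.03), the epithelial miR-203-3p (1.11), miR-675-3p (1.15) and miR-322-3p (1.18), while the guides were at 0.50 to 0.56 from their mean. The 3 guides were in both organs nearer to their own mean, which they make up, than any other miRNA was.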

How the data were processed

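The values are read counts per mature miRNA as the authors deposited them, whole numbers that were not normalized. The submitters' processing notes name Bowtie2 2.2.5, DESeq2 and build mm10, whereas the study's text names Bowtie with MirGeneDB, and the table carries miRBase names, so the step that gave these counts is not settled. The RNA-seq data of the study were not analysed here. Replicates of the same organ and time point differed by more than counting error (chi-square per degree of freedom at least 5.95). No library was thus a copy of another of its group, and libraries of different groups were not compared in this way.

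Each organ was fitted apart with edgeR 4.0.16 (TMM factors, quasi-likelihood test) in R 4.3.3, after a filter that kept a miRNA when 2 or more libraries of some time point exceeded 1 CPM. P-values were adjusted by Benjamini-Hochberg over all miRNAs tested, and calls needed an adjusted p under 0.05, over 1.5-fold and no overlap. The interaction used all 21 libraries. Arm ratios were fitted with limma 3.58.1 on log2 ratios with a pseudocount of 0.5, over hairpins whose arms both averaged at least 5 counts. Of the table's hairpins, 616 had both arms. Guide ratios (pseudocount 0.5) were compared with exact permutation tests in Python 3.11.15: p is the share of relabelings of the libraries with an absolute difference of mean log2 ratio at least as large, two-sided, adjusted over 18 tests in time and 9 between organs. Intervals are 95% Wilson for shares and exact binomial for ratios of summed counts.

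DESeq2 1.42.0, other size factors, filters and pseudocounts, call rules, library sets, blocks by replicate number and leaving out each library were alternatives. The trend of limma over the mean 3p count was added after seeing the data and changed no call of the cluster's hairpins. Replicate numbers were checked by correlating, across miRNAs, what libraries of the same number had left after group means. Only for SOC P0 and E16 was r positive in every pair (4 pairs, r from 0.274 to 0.520). There the blocked values of the strands, their interaction and the arm ratios are given. Libraries of different numbers were not compared, and SOC replicates 1, 2 and 3 keep their set from E16 to P0. From P0 to P16, r was 0.59 for SOC replicate 1, which keeps its set, and -0.57 and -0.65 for replicates 2 and 3, which do not. A pairing by number thus cannot be told apart from a shared set.

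Sequences came from RefSeq (GRCm38.p6). Named miRNAs were the 6 members, the marker lists with their most abundant examples first, the 5 nearest profiles in each organ (miRNAs with a mean of at least 20 counts, log2 CPM with a prior count of 2), and miRNAs sharing bases 2 to 8 or 2 to 7 with a guide. Members, lists and library sets were chosen with earlier results of these data known. The analysis steps were tested on simulated data.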

Additional observations from a re-analysis of the deposited data

Results flagged for a closer look

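In 52 groups of 4 values, many from the same libraries, 7 values lay far from the other 3 of their group by Dixon's ratio. Chance singles out about 1 in 20 groups of independent, normally distributed values. These groups overlap and many hold low counts, so that rate does not apply to them. In the cochlea miR-182-5p was at 1947 CPM in P0 replicate 1, above the others of its group. miR-182-3p was at 7.78 CPM in cochlea P16 replicate 2, the only P16 library with a count, where the 3p share of miR-182 was 1.06%. The 3p share of miR-182 was 1.83% in cochlea P0 replicate 2, below its group. In the SOC miR-96-3p was at 1.39 CPM in E16 replicate 2. SOC P0 replicate 4, a library of set C, had 13.7% of miR-96 counts and 0.00719% of miR-182 counts on the 3p arm, above its group in both. Most of these values rest on 1 to 18 counts.

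The change from E16 to P16 differed between the organs by the interaction test in edgeR for the 3 guides. The SOC change minus the cochlear change was -5.60 for miR-182-5p, -5.71 for miR-183-5p and -6.25 for miR-96-5p, on the log2 scale. Organ, strain and kits coincide, and the SOC was cut from frozen whole heads at E16 but from removed brains at P16. The parts of organ, strain, kits and dissection in this difference cannot be told apart.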

How the results depend on the processing

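The calls of the SOC guides from E16 to P16 and their interaction held under every alternative run in which they could be tested, though adding sets A, B and C as a covariate took the interaction from -5.60, -5.71 and -6.25 to -4.58, -3.63 and -4.57 (miR-182-5p, miR-183-5p, miR-96-5p). Other results moved, and where no construction is named the cause was not tested. Strands called by library totals numbered 6 (cochlea P0 against E16) and 5 (P16 against E16). A minimum of 10 counts in every library leaves out most members by construction, and left 0, 0 and 0 called in the cochlea (P0 against E16, P16 against E16, P16 against P0) and 1, 2 and 1 in the SOC. From P0 to P16 in the SOC it kept miR-182-5p, which was then not called (-2.76, adjusted p = 0.0244) because its replicates overlapped. The replicate block gave 1 in the cochlea and 1 in the SOC from E16 to P0. A joint fit of all 21 libraries gave 1 (cochlea P0 against E16) and 0 (P16 against P0), and in the SOC 3 from E16 to P0, adding miR-183-5p (-2.52, adjusted p = 0.00518). Without set A, which leaves 7 SOC libraries, the SOC gave 0 from E16 to P0 and 0 from P0 to P16, where 4 and 4 strands had an unadjusted p under 0.05.

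Over all miRNAs, calls went in the cochlea from 219 to 93 (minimum of 10 counts) or 110 (joint fit) for P0 against E16, from 265 to 104 or 176 for P16 against E16, and from 94 to 54 or 57 for P16 against P0. In the SOC they went from 46 to 84 (DESeq2), 96 (set as covariate) or 0 (without set A, with 73 at an unadjusted p under 0.05) for P0 against E16, from 286 to 189 (minimum of 10 counts) or 104 (without set A) for P16 against E16, and from 112 to 15 (without set A) for P16 against P0. The minimum of 10 counts also cut the miRNAs tested, from 896 to 173 in the cochlea and from 694 to 448 in the SOC.

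For the interaction from E16 to P0, DESeq2 called 2 strands and the set as covariate 3. The interaction of miR-182-3p changed sign under library totals (0.19, E16 to P0) and with the set as covariate (-0.14, E16 to P16). Hairpins with a called arm ratio numbered 2 with a pseudocount of 1 and 0 with an average of at least 20 counts in the cochlea from E16 to P16, 0 with the latter from P0 to P16, where miR-182 is left out by construction, and 1 and 1 with the replicate block in the SOC (E16 to P16, P0 to P16). In the SOC the arm ratio of miR-96 changed sign with the set as covariate (0.23, E16 to P0), and that of miR-183 with a pseudocount of 1 (-0.38) or the block (-0.61) from E16 to P16, and with the set as covariate (0.74) from P0 to P16. Within set B alone, guide ratios moved to -0.93 (miR-182-5p over miR-183-5p, SOC P16 minus P0), -1.59 and 2.36 (miR-183-5p over miR-96-5p, P0 minus E16 and P16 minus P0), and between organs to 7.28 (miR-182-5p over miR-183-5p at P0), 4.92 (miR-182-5p over miR-96-5p at P16) and -3.91 (miR-183-5p over miR-96-5p at P0).

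Leaving out each library in turn, strands called ran from 1 to 6 (cochlea P0 against E16), 1 to 2 (cochlea P16 against P0), 1 to 2 (SOC P0 against E16) and 1 to 4 (SOC P16 against P0). All miRNAs called ran from 114 to 255 and from 176 to 282 in the cochlea (P0 and P16 against E16), and from 23 to 60 and from 66 to 248 in the SOC (P0 against E16, P16 against P0). Strands with an interaction from E16 to P0 ran from 0 to 2, and hairpins called in the cochlea from 0 to 2 (E16 to P16) and 0 to 1 (P0 to P16). Signs changed for uncalled values: cochlear miR-96-3p from P0 to P16 (-0.026 to 1.03), the interaction of miR-182-3p from E16 to P0 (-0.94 to 0.17), the arm ratio of cochlear miR-96 from P0 to P16 (-0.084 to 0.69) and that of SOC miR-183 from E16 to P0 (-0.31 to 1.16), E16 to P16 (-0.86 to 0.79) and P0 to P16 (-1.33 to 0.32). So did 8 of 18 guide ratios over time: in the cochlea miR-182-5p over miR-96-5p (-0.32 to 0.018, P16 minus P0) and miR-183-5p over miR-96-5p (-0.11 to 0.55, P16 minus E16). In the SOC they were miR-182-5p over miR-183-5p (-0.37 to 0.35, P16 minus E16), miR-182-5p over miR-96-5p (-1.16 to 0.045 and -0.21 to 0.99, P0 and P16 minus E16) and miR-183-5p over miR-96-5p (-0.46 to 0.46, -0.12 to 0.76 and -0.16 to 0.62, P0 minus E16, P16 minus E16 and P16 minus P0). Where E16 of the cochlea keeps 1 library, that library is assumed to vary like the other groups. Depth limits the cochlear miR-96 strands and all P16 passengers.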
